A study of Mus musculus with 12 samples.

Results

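The 10 genes described here, out of 53465 in the deposited table, belong to the integrated stress response (ISR) and the unfolded protein response (UPR). They were chosen by name from what is known of both pathways, at a time when earlier results of these data were known, by a rule that names genes and no values. *Atf4*, *Ddit3*, *Trib3*, *Asns*, *Chac1* and *Psat1* stand for the ISR, and *Xbp1*, *Hspa5*, *Herpud1* and *Dnajb9* for the UPR of the endoplasmic reticulum (ER). In the ISR, kinases that sense amino acid shortage, unfolded protein, double-stranded RNA or lack of heme phosphorylate the translation factor eIF2α, which slows protein synthesis in general and favours translation of the transcription factor ATF4. In the UPR, the sensors PERK, IRE1α and ATF6 respond to unfolded protein in the ER, and IRE1α splices the mRNA of *Xbp1* into a form that encodes an active transcription factor. Hematopoietic stem cells keep protein synthesis low, and both responses are known to bear on whether they survive stress.

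RNA-seq was done on LSKs (Lin- Sca-1+ c-Kit+ cells), the bone marrow fraction that holds hematopoietic stem cells and multipotent progenitors. There were 4 groups of 3 libraries, made from male mice 8 to 10 weeks old. *Tespa1*-/- mice carry the allele B6.129S-Tespa1tm1Smoc, backcrossed to C57BL/6 for more than 6 generations, and *Tespa1*+/+ mice were littermates. LSKs of each genotype came either from untreated mice or from mice at day 9 after a single intraperitoneal dose of 150 mg/kg 5-fluorouracil (5-FU), a drug that kills cycling cells. Neither the labels nor the methods say whether a library was made from 1 mouse or from a pool, so that p-values measure the spread between these libraries, which may be technical. The allele is present in every cell of the mouse, and what it removes from *Tespa1* is not given in the sources used here.

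Library totals ran from 22118154 to 28275079 counts. Levels are given as CPM, counts relative to the library total after scaling by TMM factors, and 3 counts, the detection limit, were worth 0.1088 to 0.1357 CPM. *Tespa1* itself was at 43.1 to 51.0 CPM in untreated *Tespa1*+/+ and 34.5 to 34.9 CPM in untreated *Tespa1*-/- LSKs, and at 47.1 to 57.2 CPM against 17.2 to 20.7 CPM after 5-FU. It was lower in both *Tespa1*-/- groups (log2 fold change -0.42 and -1.47, edgeR adjusted p = 0.0316 and 9.38e-05), and reads of the gene were present in every *Tespa1*-/- library. Markers of LSKs, such as *Kit* and *Ly6a*, were above the detection limit in every library, with a summed level over 8 genes of 1530 to 1590 CPM in untreated *Tespa1*+/+, 1270 to 1310 CPM in untreated *Tespa1*-/-, 1240 to 1290 CPM in 5-FU-treated *Tespa1*+/+ and 739 to 808 CPM in 5-FU-treated *Tespa1*-/- LSKs. Single LSK markers went both ways with 5-FU in *Tespa1*+/+ LSKs, at an edgeR adjusted p below 0.05. *Flt3* and *Cd34* fell (log2 fold change -0.955 and -0.568), 2 of 8 beside 4.18% of all genes. *Slamf1* and *Mecom* rose (1.732 and 0.983), 2 of 8 beside 3.77%. The 5-FU-treated *Tespa1*-/- group stood apart in markers of other cells. Its 11 neutrophil genes summed to 1080 CPM in each library, against 3.66 to 8.98 CPM in 5-FU-treated *Tespa1*+/+ LSKs, where *Cd177*, *Retnlg* and *Fcnb* were at 0. Its 11 erythroid genes summed to 545 to 548 CPM, against 55.3 to 70.1 CPM. Among the lineage antibodies of the sort, anti-CD11b, anti-Gr-1 and anti-Ter-119 are directed at mature cells of both kinds. The same cocktail held anti-B220 and anti-CD3e. In these bulk libraries, fewer cells of a type and less RNA per cell cannot be told apart.

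**Figure D1:**
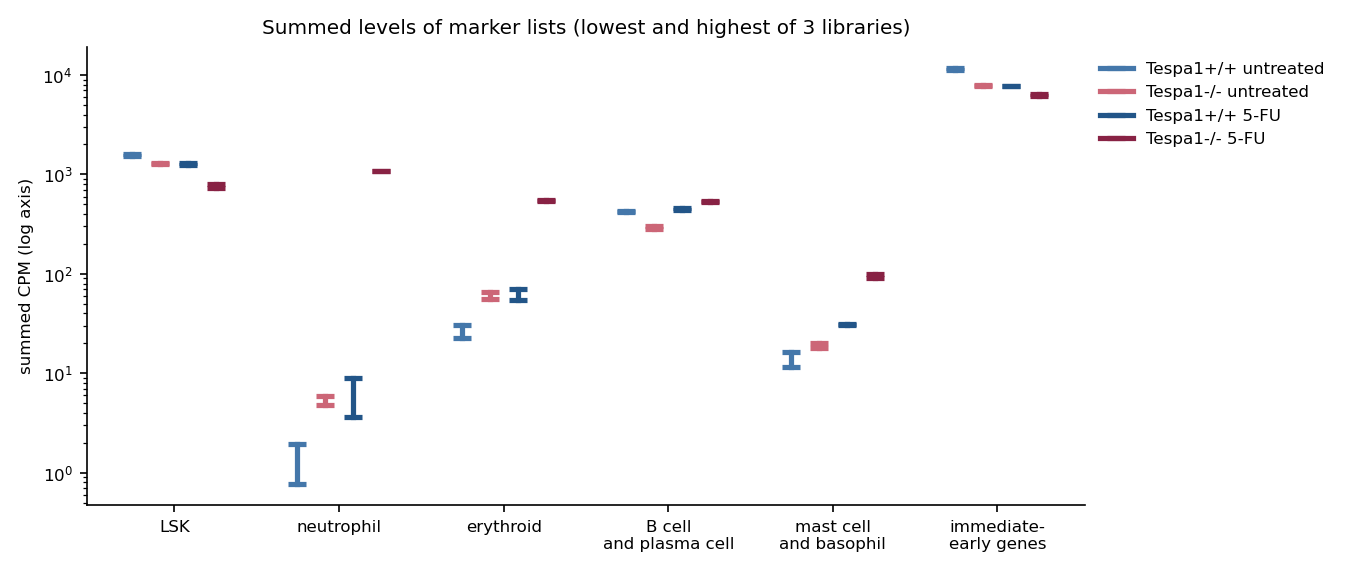
Summed CPM (log axis) of 6 marker lists in the 4 groups, with a bar from the lowest to the highest of the 3 libraries. Neutrophil and erythroid sums were highest in 5-FU-treated Tespa1-/- LSKs, at 1080 CPM and 545 to 548 CPM, and the immediate-early sum was highest in untreated Tespa1+/+ LSKs, at 11300 to 11800 CPM.

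The promoters of the 10 genes were read from RefSeq (GRCm38.p6), in windows of 250 bases before and 50 after the start site. All 10 genes had a window and *Psat1* had 2. The core TGATGNAA, to which ATF4 and C/EBP factors are known to bind as a pair, was searched on both strands and was held by 4 of the 10 genes, *Asns*, *Chac1*, *Trib3* and *Herpud1*, and by 3.97% of 32851 windows in all. The ER stress element ERSE (CCAAT, then 9 bases, then CCACG), a site of ATF6 and NF-Y, was held by *Hspa5* and by 0.119% of all windows. ERSE-II (ATTGG, then 1 base, then CCACG) was held by *Herpud1* and by 0.0365% of all windows. The letters TGACGTGG, the core of the UPR element bound by XBP1, were in 0.676% of all windows and in no window of the 10 genes, which says only that these letters are not there. The sites are shown because they let the genes be set beside the other pathway genes described further on. Distances are from the RefSeq start site, which can differ from the gene coordinates given below. The sites of *Asns* and *Hspa5* lie within those coordinates, and the core of *Trib3* lies outside them. Each run is written so that the motif reads 5′ to 3′, with the 8 letters of a TGATGNAA match, or CCAAT and CCACG of an ERSE match, in capitals, and a match is a description of letters, not of binding.
Asns, chr6:7693214-7693243, gene on the minus strand, bases -23 to -16 from the start: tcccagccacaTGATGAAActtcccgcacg
Chac1, chr2:119351038-119351067, gene on the plus strand, bases -193 to -186, motif on the opposite strand: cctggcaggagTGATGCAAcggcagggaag
Trib3, chr2:152344028-152344057, gene on the minus strand, bases 15 to 22, motif on the opposite strand: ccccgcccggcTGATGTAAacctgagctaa
Hspa5, chr2:34772020-34772048, gene on the plus strand, bases -65 to -47: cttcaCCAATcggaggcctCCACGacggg
The stretch of *Herpud1* that holds both of its motifs is given on the gene's own strand, with both matches whole in capitals, so that the TGATGNAA core, which lies on the opposite strand, reads as its reverse complement.
Herpud1, chr8:94386292-94386412, plus strand, bases -137 to -17: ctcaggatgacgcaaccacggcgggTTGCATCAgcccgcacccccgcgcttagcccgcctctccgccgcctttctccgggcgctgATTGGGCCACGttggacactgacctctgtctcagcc

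**Figure D2:**
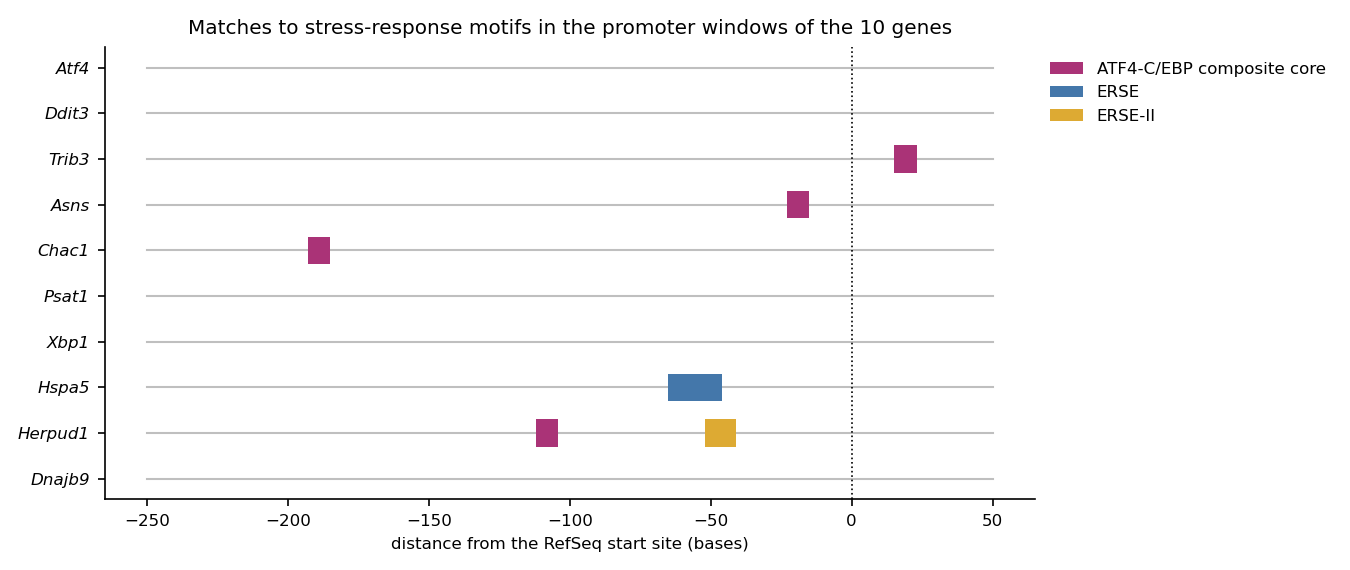
Position of each motif match in the promoter windows of the 10 genes (grey lines), in bases from the RefSeq start site (dotted line). The TGATGNAA core lay between 193 bases before and 22 bases after the start in 4 genes, ERSE lay in Hspa5 and ERSE-II in Herpud1.

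Per length of transcript, the 10 genes spanned a wide range. In the deposited FPKM values (fragments per length and library size), which allow genes to be set beside each other, *Atf4* averaged 144 FPKM over the 12 libraries and *Hspa5* 88.3 FPKM. *Xbp1*, *Dnajb9*, *Herpud1*, *Ddit3* and *Psat1* lay between 14.5 and 8.51 FPKM. *Asns* averaged 2.87 FPKM, *Trib3* 0.82 FPKM and *Chac1* 0.245 FPKM, so that the low end was made of ISR targets.

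Of the genes of the ISR arm, *Atf4* (ENSMUSG00000042406, chr15:80255184-80257540), its central transcription factor, was highest in untreated *Tespa1*+/+ LSKs. There it was at 342, 317 and 329 CPM, against 234, 239 and 243 CPM in untreated *Tespa1*-/- LSKs. With 5-FU it was at 217, 206 and 200 CPM in *Tespa1*+/+ and at 204, 242 and 219 CPM in *Tespa1*-/- LSKs. All 3 untreated *Tespa1*+/+ libraries lay above all others, and the other 3 groups lay close together. *Atf4* was 1.37-fold lower in *Tespa1*-/- than in *Tespa1*+/+ LSKs without treatment (log2 fold change -0.45 ± 0.045 SE, edgeR adjusted p = 0.00103). It fell 1.57-fold with 5-FU in *Tespa1*+/+ LSKs (log2 fold change -0.65 ± 0.055 SE, edgeR adjusted p = 0.000156). Within *Tespa1*-/- LSKs the log2 difference between 5-FU and no treatment was -0.11, with a 95% interval of -0.26 to 0.03. Between genotypes after 5-FU it was 0.09, with an interval of -0.06 to 0.25.

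*Ddit3* (ENSMUSG00000025408, chr10:127290774-127296288), which encodes the transcription factor CHOP, a promoter of cell death under lasting stress, was likewise highest in untreated *Tespa1*+/+ LSKs. Its untreated *Tespa1*+/+ libraries were at 35.0, 32.6 and 33.5 CPM, and its untreated *Tespa1*-/- libraries at 19.5, 18.6 and 21.8 CPM. After 5-FU the *Tespa1*+/+ libraries were at 24.1, 17.9 and 20.1 CPM and the *Tespa1*-/- libraries at 20.8, 21.6 and 22.2 CPM. As with *Atf4*, the untreated *Tespa1*+/+ libraries lay above the other 9, which overlapped between groups. In untreated LSKs *Ddit3* was 1.67-fold lower without *Tespa1* (log2 fold change -0.74 ± 0.106 SE, edgeR adjusted p = 0.00608). With 5-FU it fell 1.61-fold in *Tespa1*+/+ LSKs (log2 fold change -0.69 ± 0.140 SE, edgeR adjusted p = 0.0175). This call was lost without any 1 of the 6 libraries other than 5-FU-treated library 1 (adjusted p of 0.05 to 0.0691). *Ddit3* shares 68 exon bases with *Mars* on the opposite strand, a gene with 1243 to 2236 counts, and whether the counting used strand is not given in the sources used here.

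*Trib3* (chr2:152337422-152344032), a pseudokinase that ATF4 and CHOP induce and that feeds back on them, had few counts, 24 to 114 per library. It was at 4.43, 4.27 and 3.29 CPM in 5-FU-treated *Tespa1*+/+ LSKs, and the other 9 libraries lay between 1.09 and 2.88 CPM. Its values in 5-FU-treated *Tespa1*+/+ LSKs were thus above those of the other 3 groups with no overlap. Neither difference passed the test: 5-FU against untreated in *Tespa1*+/+ LSKs had a log2 difference of 1.05 with a 95% interval of 0.18 to 1.93 (edgeR adjusted p = 0.149). *Tespa1*-/- against *Tespa1*+/+ after 5-FU had -0.80 with an interval of -1.55 to -0.05 (edgeR adjusted p = 0.162).

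*Asns* (ENSMUSG00000029752, chr6:7675169-7693254) encodes asparagine synthetase and is a well-known ATF4 target. After 5-FU it was at 20.2, 22.8 and 20.3 CPM in *Tespa1*-/- LSKs, against 9.18, 7.27 and 6.38 CPM in *Tespa1*+/+ LSKs. Untreated *Tespa1*+/+ libraries were at 6.86, 10.0 and 4.12 CPM and untreated *Tespa1*-/- libraries at 6.63, 7.14 and 7.95 CPM. The 3 libraries of 5-FU-treated *Tespa1*-/- LSKs lay far above the other 9. *Asns* was 2.77-fold higher in *Tespa1*-/- than in *Tespa1*+/+ LSKs after 5-FU (log2 fold change 1.47 ± 0.182 SE, edgeR adjusted p = 0.00082). It rose 2.91-fold with 5-FU in *Tespa1*-/- LSKs (log2 fold change 1.54 ± 0.143 SE, edgeR adjusted p = 0.000138). In *Tespa1*+/+ LSKs the log2 difference with 5-FU was 0.14, with a 95% interval of -0.60 to 0.87. Of the 10 genes, only *Asns* was called higher with 5-FU in either genotype.

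*Chac1*, which encodes an enzyme that degrades glutathione, had few counts, from 0 to 32, and a wide spread within groups. It had 0, 25 and 0 counts in untreated *Tespa1*+/+ and 4, 14 and 0 counts in untreated *Tespa1*-/- LSKs. After 5-FU it had 0, 7 and 12 counts in *Tespa1*+/+ and 11, 32 and 11 counts in *Tespa1*-/- LSKs. The groups overlapped, the filter on low counts kept *Chac1* in 3 of 5 comparisons, and no difference in it was larger than the spread between libraries.

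*Psat1*, an enzyme of serine synthesis, was at 54.6, 66.1 and 65.3 CPM in untreated *Tespa1*+/+ and at 68.0, 66.4 and 46.1 CPM in untreated *Tespa1*-/- LSKs. Its values after 5-FU were 43.4, 48.9 and 61.9 CPM in *Tespa1*+/+ and 60.2, 66.3 and 63.5 CPM in *Tespa1*-/- LSKs. Its groups overlapped in each comparison. Between genotypes after 5-FU the log2 difference was 0.30 with a 95% interval of 0.01 to 0.59 (edgeR adjusted p = 0.17), and it passed the test when *Tespa1*+/+ 5-FU library 3 was left out (0.46, adjusted p = 0.0332).

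Of the genes of the UPR arm, *Xbp1* (ENSMUSG00000020484, chr11:5520659-5525893), whose spliced mRNA encodes the transcription factor of the IRE1α branch, was lowest in 5-FU-treated *Tespa1*+/+ LSKs, at 50.1, 54.8 and 44.2 CPM. In 5-FU-treated *Tespa1*-/- LSKs it was at 75.4, 73.0 and 83.3 CPM. Untreated libraries were at 64.6, 54.6 and 62.5 CPM in *Tespa1*+/+ and at 65.5, 74.3 and 79.5 CPM in *Tespa1*-/- LSKs. Every *Tespa1*-/- library thus lay above every *Tespa1*+/+ library, with or without 5-FU. After 5-FU *Xbp1* was 1.55-fold higher in *Tespa1*-/- LSKs (log2 fold change 0.64 ± 0.101 SE, edgeR adjusted p = 0.00329). Untreated, the log2 difference of 0.28 (95% interval 0.06 to 0.50) did not pass (edgeR adjusted p = 0.152). A gene-level count does not separate spliced from unspliced *Xbp1* mRNA.

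*Hspa5* (ENSMUSG00000026864, chr2:34771970-34777547) encodes BiP, the main Hsp70 chaperone of the ER. It was at 730, 692 and 618 CPM in untreated *Tespa1*+/+ and at 729, 659 and 672 CPM in untreated *Tespa1*-/- LSKs, and these overlapped. At day 9 after 5-FU it was at 515, 493 and 493 CPM in *Tespa1*+/+ and at 575, 576 and 622 CPM in *Tespa1*-/- LSKs. Within each genotype the 5-FU-treated libraries lay below the untreated ones, and after 5-FU the *Tespa1*-/- libraries lay above the *Tespa1*+/+ ones. *Hspa5* fell 1.34-fold with 5-FU in *Tespa1*+/+ LSKs (log2 fold change -0.43 ± 0.057 SE, edgeR adjusted p = 0.00208) and 1.17-fold in *Tespa1*-/- LSKs (-0.22 ± 0.050 SE, edgeR adjusted p = 0.0145). After 5-FU it was 1.18-fold higher in *Tespa1*-/- than in *Tespa1*+/+ LSKs (log2 fold change 0.24 ± 0.045 SE, edgeR adjusted p = 0.00777).

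*Herpud1* (chr8:94386438-94395377), a membrane protein of ER-associated degradation, was at 66.7, 58.7 and 76.3 CPM in untreated *Tespa1*+/+ and at 68.6, 71.5 and 74.0 CPM in untreated *Tespa1*-/- LSKs. After 5-FU it was at 52.2, 47.1 and 56.3 CPM in *Tespa1*+/+ and at 63.2, 63.1 and 58.9 CPM in *Tespa1*-/- LSKs. The 5-FU-treated *Tespa1*+/+ libraries lay below all others. In the separate edgeR fits the smallest adjusted p was 0.0551, for 5-FU against untreated in *Tespa1*-/- LSKs (log2 difference -0.21, 95% interval -0.36 to -0.06). With all 12 libraries in 1 fit, 5-FU against untreated passed in *Tespa1*+/+ LSKs (-0.36, adjusted p = 0.0313). In the separate fits 3 of its 5 contrasts had an unadjusted P below 0.05.

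*Dnajb9* (ENSMUSG00000014905, chr12:44205559-44210326), which encodes ERdj4, a co-chaperone of BiP and a target of spliced XBP1, was lower in *Tespa1*-/- libraries. It was at 54.8, 59.7 and 46.1 CPM in untreated *Tespa1*+/+ and at 36.4, 36.5 and 39.6 CPM in untreated *Tespa1*-/- LSKs. After 5-FU it was at 39.9, 33.1 and 33.9 CPM in *Tespa1*+/+ and at 29.5, 27.5 and 23.0 CPM in *Tespa1*-/- LSKs. Each *Tespa1*-/- group lay below the *Tespa1*+/+ group of the same treatment without overlap. *Dnajb9* was 1.41-fold lower in untreated *Tespa1*-/- LSKs (log2 fold change -0.50 ± 0.107 SE, edgeR adjusted p = 0.0339), but the adjusted p rose to between 0.077 and 0.156 without any 1 of the 6 libraries other than *Tespa1*+/+ library 3. It fell 1.48-fold with 5-FU in *Tespa1*+/+ LSKs (log2 fold change -0.57, edgeR adjusted p = 0.0251, up to 0.105 without untreated library 1 or 2 or 5-FU-treated library 2 or 3) and 1.41-fold in *Tespa1*-/- LSKs (-0.50, edgeR adjusted p = 0.0144, 0.0614 without untreated *Tespa1*-/- library 3). After 5-FU the difference between genotypes was -0.42 on the log2 scale, with a 95% interval of -0.72 to -0.11 (edgeR adjusted p = 0.0766). It passed in 2 of 7 fits with another tool, filter, scaling or design (0.0371 in DESeq2).

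**Figure D3:**
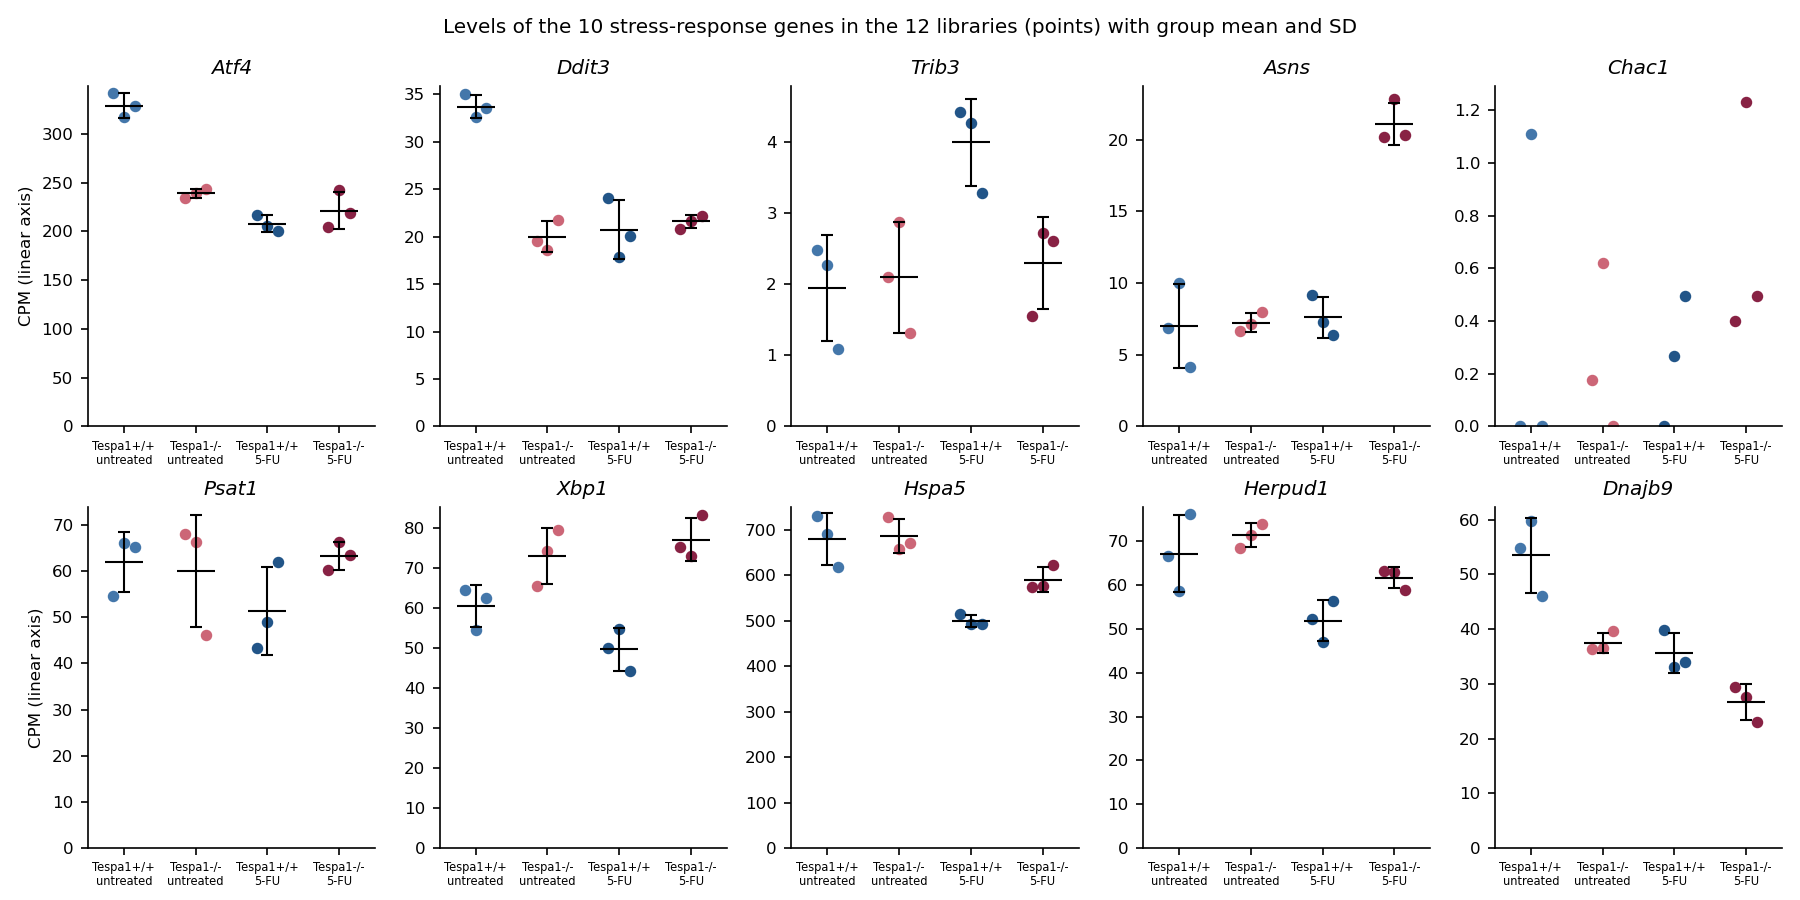
CPM (linear axes from 0) of the 10 genes in each library (points) by group, with the group mean and SD in black, except for Chac1, where only the points are drawn. Atf4 and Ddit3 were highest in the 3 untreated Tespa1+/+ libraries, Asns was highest in the 3 libraries of 5-FU-treated Tespa1-/- LSKs at 20.2 to 22.8 CPM, and every Tespa1-/- library exceeded every Tespa1+/+ library for Xbp1.

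Over the 10 genes, 3 of the 9 tested were called between genotypes in untreated LSKs, all of them lower in *Tespa1*-/- (*Atf4*, *Ddit3* and *Dnajb9*). Of all 17055 genes tested there, 5.23% were called, 1.64% higher and 3.59% lower. Groups did not overlap for 4 members, 3 lower and 1 higher, and for 25.5% of all genes tested. The median log2 fold change of the members was 0.03, beside 0.01 for all genes, with 5 members above 0 and 4 below. Markers of other cells moved in this contrast as well. The B cell and plasma cell genes, *Ighm* among them, summed to 282 to 302 CPM in untreated *Tespa1*-/- against 419 to 430 CPM in untreated *Tespa1*+/+ LSKs, 6 of 12 being called lower. Erythroid genes summed to 55.9 to 65.4 CPM against 22.7 to 31.0 CPM, and 3 of 8 LSK markers were lower. Their part in the differences of the members was not tested.

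After 5-FU, 3 of the 10 tested were called between genotypes, all of them higher in *Tespa1*-/- (*Asns*, *Xbp1* and *Hspa5*), where 13.1% of 17239 genes were called, 7.34% higher and 5.78% lower. Groups did not overlap for 6 members, 4 higher and 2 lower, and for 33.1% of all genes. The median of the members was 0.25, beside -0.01 for all genes. *Dnajb9* was below, and *Xbp1* above, the *Tespa1*+/+ libraries without overlap in both settings. In the separate edgeR fits each was called in only 1 of them.

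With 5-FU in *Tespa1*+/+ LSKs, 4 of 9 members fell (*Atf4*, *Ddit3*, *Hspa5* and *Dnajb9*), where 7.95% of 17002 genes were called, 3.77% higher and 4.18% lower. In *Tespa1*-/- LSKs, 1 of 10 rose (*Asns*) and 2 fell (*Hspa5* and *Dnajb9*), where 19.4% of 17228 genes were called, 10.7% higher and 8.64% lower. These comparisons share libraries with those between genotypes, so that their values are not independent of them.

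The interaction of genotype and treatment tests whether the difference between genotypes differed with 5-FU. It was called for 3 of 10 members, all with a higher value after 5-FU, where 5.01% of 18696 genes were called, 3.02% higher and 1.99% lower. The values were 0.55 ± 0.084 SE for *Atf4* (edgeR adjusted p = 0.00197), 0.80 ± 0.173 SE for *Ddit3* (0.0167) and 1.41 ± 0.367 SE for *Asns* (0.0439) on the log2 scale. For *Atf4* and *Ddit3* the genotypes were apart without treatment and overlapped after 5-FU, and for *Asns* they overlapped without treatment and were apart after 5-FU. The call for *Asns* was the least firm, since it was lost without any 1 of the 12 libraries other than untreated *Tespa1*+/+ library 3 or 5-FU-treated *Tespa1*+/+ library 1 (adjusted p up to 0.109), and that for *Ddit3* was lost without untreated *Tespa1*-/- library 1 or 2 (0.0513 and 0.0569). For *Xbp1* the interaction was 0.35 (95% interval 0.05 to 0.66, edgeR adjusted p = 0.191) and for *Hspa5* 0.22 (0.05 to 0.39, adjusted p = 0.144). Neither passed with all libraries, and *Hspa5* passed without untreated *Tespa1*+/+ library 3 (0.28, edgeR adjusted p = 0.0387).

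**Figure D4:**
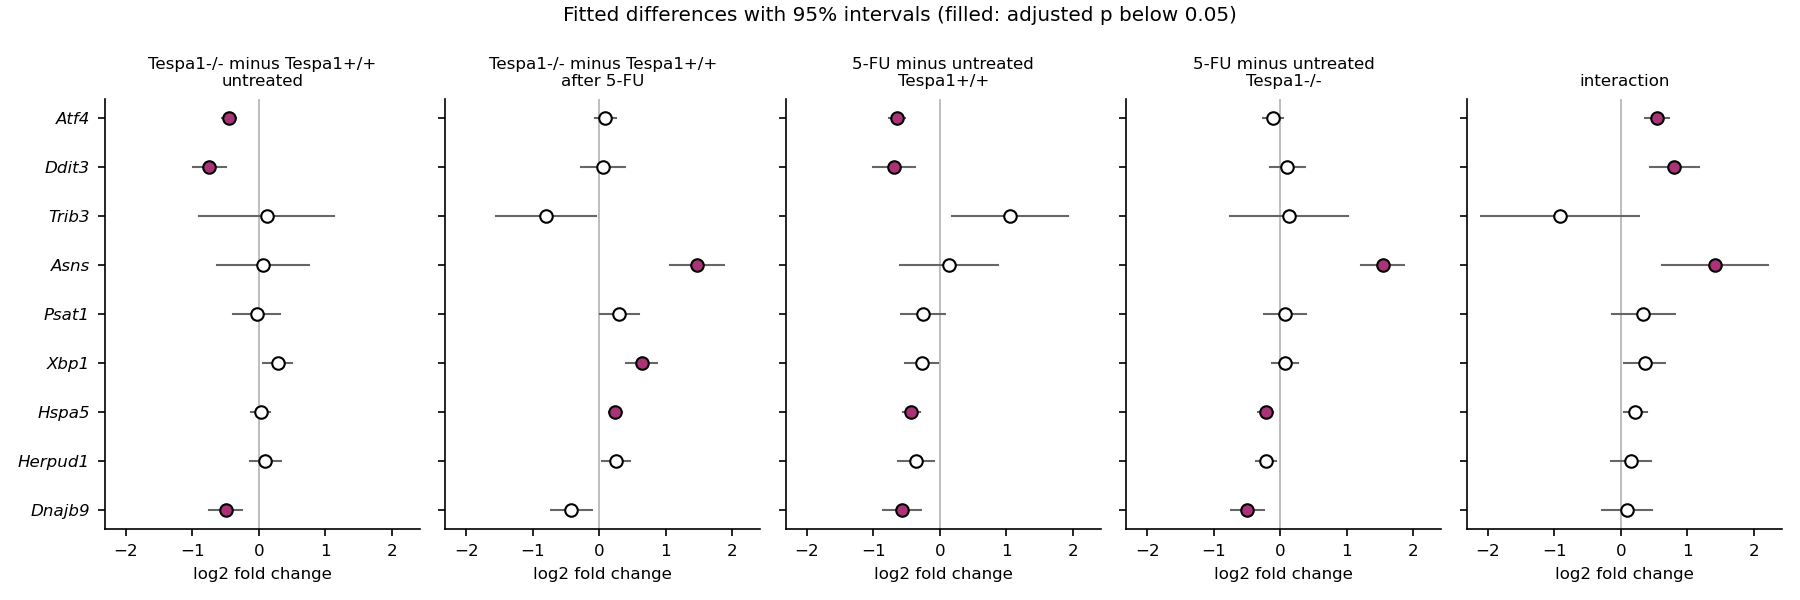
Log2 fold changes (points) with 95% intervals (lines) of 9 genes in the 4 pairwise comparisons and the interaction, from the edgeR fits. Filled points passed an adjusted p of 0.05. Atf4 and Ddit3 lay below 0 in untreated LSKs and with 5-FU in Tespa1+/+ LSKs, and Asns lay at 1.47 between genotypes after 5-FU.

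Other genes of both pathways, 94 in 10 lists by role, were read from the same fits. Between genotypes after 5-FU, 34 of the 89 tested were higher and 4 lower in *Tespa1*-/- LSKs (13.1% of all genes were called), with a median log2 fold change of 0.24 beside -0.01 for all genes. The 38 called became 22 to 24 without 1 of the 5-FU-treated *Tespa1*-/- libraries. Without treatment, 2 of 87 were higher and 4 lower (5.23% of all genes), with a median of 0.04, a share near that of all genes. With 5-FU, 2 of 88 rose and 8 fell in *Tespa1*+/+ LSKs (7.95% of all genes), and 23 of 88 rose and 6 fell in *Tespa1*-/- LSKs (19.4% of all genes). The interaction was called for 14 of 90 (5.01% of all genes), 13 of them with a higher value after 5-FU. With 1 library left out, the calls ran from 3 to 7 without treatment and from 7 to 12 in the interaction. With 5-FU they ran from 5 to 9 in *Tespa1*+/+ and from 19 to 25 in *Tespa1*-/- LSKs.

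Cytosolic tRNA synthetases, which charge tRNAs with amino acids and many of which ATF4 is known to induce, stood beside *Asns*. After 5-FU, 8 of 12 were higher in *Tespa1*-/- LSKs beside 7.34% of all genes, with a median log2 fold change of 0.42 beside -0.01. *Nars*, for asparagine, was 1.37-fold higher (edgeR adjusted p = 0.00305), *Gars*, for glycine, 1.37-fold (0.0061), *Cars*, for cysteine, 1.43-fold (0.00908) and *Aars*, for alanine, 1.45-fold (0.0101). *Aars* averaged 133 ± 16.5 CPM (SD, n = 3) in 5-FU-treated *Tespa1*-/- and 92.1 ± 9.87 CPM in 5-FU-treated *Tespa1*+/+ LSKs. Called changes were small, since no synthetase reached 1.5-fold, and the count ran from 5 (without 5-FU-treated *Tespa1*-/- library 3) to 8 with 1 library left out. The TGATGNAA core was in the windows of 5 of the 8 synthetases that had one. Of these, 3 were called, *Gars* and *Yars* among them, and *Iars* (1.06-fold, adjusted p = 0.527) and *Tars* (1.24-fold, adjusted p = 0.0671) were not, a split noted after the values were seen. Of the 3 synthetases whose window lacked the core 2 were called, and of 4 without a window 3 were. Without treatment, 1 of the 12 was higher in *Tespa1*-/- LSKs, *Yars* (1.31-fold, edgeR adjusted p = 0.0339), beside 1.64% of all genes. The untreated list median was 0.17, beside 0.01. The interaction was called for 2 of the 12, *Gars* and *Nars*, beside 5.01% of all genes. The core of *Gars* has the same letters as that of *Asns*, and that of *Yars* the same as that of *Chac1*.
Gars, chr6:55037960-55037989, bases -30 to -23, motif on the opposite strand: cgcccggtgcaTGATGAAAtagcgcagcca
Yars, chr4:129189895-129189924, bases 4 to 11: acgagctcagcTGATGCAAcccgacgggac

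Among amino acid transporters, 2 of 8 were higher and 1 lower in *Tespa1*-/- LSKs after 5-FU, beside 7.34% and 5.78% of all genes. *Slc7a11*, the cystine importer, averaged 4.04 ± 0.77 CPM (SD, n = 3) in 5-FU-treated *Tespa1*-/- LSKs against 1.24 ± 0.286 CPM in 5-FU-treated *Tespa1*+/+ LSKs, 3.23-fold higher (edgeR adjusted p = 0.0132). *Slc7a5*, the leucine importer, was 1.25-fold higher (0.0379), while *Slc38a2*, a neutral amino acid importer, was lower (log2 fold change -0.30, edgeR adjusted p = 0.0039) as it was in untreated *Tespa1*-/- LSKs (-0.39, 0.00319). *Slc3a2*, the partner chain of *Slc7a11* and *Slc7a5*, was lower in untreated *Tespa1*-/- LSKs (-0.29, edgeR adjusted p = 0.0379), 2 of the 8 being lower there beside 3.59% of all genes. In *Tespa1*+/+ LSKs, 4 of the 8 fell with 5-FU, *Slc7a5*, *Slc3a2*, *Slc7a1* and *Slc38a2*, by 0.39, 0.51, 0.38 and 0.43 on the log2 scale, where 4.18% of all genes fell. With 5-FU in *Tespa1*-/- LSKs, *Slc7a11* and *Slc6a9*, a glycine transporter, rose 3.04-fold and 2.61-fold, 3 of the 8 rising in all (10.7% of all genes), and *Slc7a1* and *Slc38a2* fell by 0.31 and 0.35 on the log2 scale (8.64% of all genes).

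Of 8 tested enzymes of amino acid and one-carbon synthesis, 1 was called with 5-FU in each genotype, where 7.95% of all genes were called in *Tespa1*+/+ and 19.4% in *Tespa1*-/- LSKs. It was *Phgdh*, the first enzyme of serine synthesis and a neighbour of *Psat1* in that pathway, which fell in *Tespa1*+/+ (log2 fold change -0.46, edgeR adjusted p = 0.02) and in *Tespa1*-/- LSKs (-0.42, 0.0165). Between genotypes after 5-FU the smallest edgeR adjusted p of the 8 was 0.112, for *Aldh18a1*, and their median log2 fold change was 0.13 beside -0.01 over all genes.

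Upstream of ATF4, 7 genes for eIF2α, its kinases and the subunits of its phosphatase were tested, of which 3 were higher and 1 lower in *Tespa1*-/- LSKs after 5-FU, where 13.1% of all genes were called. *Eif2ak3*, which encodes PERK, was 1.40-fold higher in *Tespa1*-/- LSKs (edgeR adjusted p = 0.0277) and *Eif2ak1*, the heme-regulated kinase, 1.28-fold (0.0431). *Eif2ak2*, the kinase PKR and an interferon-induced gene, was at 101 to 112 CPM in 5-FU-treated *Tespa1*-/- and 160 to 178 CPM in 5-FU-treated *Tespa1*+/+ LSKs (log2 fold change -0.67, adjusted p = 0.000234). It rose 1.28-fold with 5-FU in *Tespa1*+/+ LSKs (adjusted p = 0.0135) and fell in *Tespa1*-/- LSKs (log2 fold change -0.28, adjusted p = 0.0124). With 5-FU in *Tespa1*-/- LSKs, 3 of the 7 rose, beside 10.7% of all genes. They were *Eif2ak1* (1.37-fold, edgeR adjusted p = 0.00386), *Eif2ak3* (1.45-fold, 0.00473) and *Ppp1r15b* (1.22-fold, 0.00516). *Ppp1r15b*, the constitutive phosphatase subunit for eIF2α, was 1.15-fold higher in *Tespa1*-/- LSKs after 5-FU (edgeR adjusted p = 0.0473). The 3 that were not called had log2 fold changes of -0.20 for *Eif2ak4*, the amino acid-sensing kinase GCN2 (edgeR adjusted p = 0.151), -0.18 for *Ppp1r15a*, the stress-induced phosphatase subunit (0.0575), and 0.07 for *Eif2s1*, which encodes eIF2α (0.6).

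Of 5 transcription factors that work with ATF4 and CHOP, *Atf3* and *Cebpb* were also highest in untreated *Tespa1*+/+ LSKs, and these 2 were the ones called between untreated genotypes, where 5.23% of all genes were. *Atf3* was at 127 to 152 CPM in untreated *Tespa1*+/+ and at 57.2 to 57.7 CPM in untreated *Tespa1*-/- LSKs (log2 fold change -1.27, edgeR adjusted p = 6.94e-05). *Cebpb* was at 197 to 212 CPM against 97.8 to 101 CPM (log2 fold change -1.03, edgeR adjusted p = 3.31e-05). Both also fell with 5-FU in *Tespa1*+/+ LSKs, by 1.48 and 1.14 on the log2 scale. *Atf3* is at the same time an immediate-early gene, a class that is switched on within minutes by handling and dissociation of tissue. The 16 immediate-early genes, *Fos*, *Jun*, *Egr1* and *Atf3* among them, summed to 11300 to 11800 CPM in untreated *Tespa1*+/+, 7820 to 7960 CPM in untreated *Tespa1*-/-, 7670 to 7740 CPM in 5-FU-treated *Tespa1*+/+ and 6170 to 6370 CPM in 5-FU-treated *Tespa1*-/- LSKs. Of the 16, 15 were lower in untreated *Tespa1*-/- LSKs (3.59% of all genes) and 13 fell with 5-FU in *Tespa1*+/+ LSKs (4.18%). In these contrasts *Atf4* and *Ddit3* were lower. In addition, 10 of the 16 were lower in *Tespa1*-/- LSKs after 5-FU (5.78% of all genes) and 12 fell with 5-FU in *Tespa1*-/- LSKs (8.64%). There *Atf4* and *Ddit3* did not pass the test. The interaction was called for 7 of the 16, all with a higher value after 5-FU (3.02% of all genes), as it was for *Atf4* and *Ddit3*. The part of these genes in the differences of *Atf4* and *Ddit3* was not tested.

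Among ER chaperones and oxidoreductases, the class of *Hspa5*, after 5-FU 12 of 17 were higher in *Tespa1*-/- LSKs beside 7.34% of all genes, with a median log2 fold change of 0.25 beside -0.01. *Ero1l*, which oxidises the disulfide isomerases, was at 42.5 to 44.4 CPM against 20.1 to 24.6 CPM, 1.91-fold higher (edgeR adjusted p = 0.00082). *Sdf2l1*, a partner of ER co-chaperones, was at 54.5 to 60.2 CPM against 29.5 to 33.7 CPM, 1.79-fold higher (0.000587). *P4hb*, a disulfide isomerase, was 1.39-fold higher (0.000158) and *Calr*, a lectin chaperone, 1.17-fold (0.00101). *Hspa5* at 1.18-fold was thus among the smaller differences. With 5-FU the list and *Hspa5* had different signs in part: *Hspa5* fell in both genotypes, while 6 of the 17 rose in *Tespa1*-/- LSKs, where 10.7% of all genes rose. In *Tespa1*+/+ LSKs the 17 had a median of -0.10, the smallest adjusted p being 0.0728 for *Hyou1*.

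ERSE was in the windows of 7 of the 14 chaperone genes that had one. Of these, *Hsp90b1*, *Calr*, *Creld2*, *Dnajc3* and *Pdia6* were called higher after 5-FU, and *Canx* (log2 difference 0.08, edgeR adjusted p = 0.645) and *Ero1lb* (-0.08, 0.861) were not, a split noted after the values were seen. Of the 7 chaperone genes whose window held no ERSE, 5 were called too, and of 3 without a window 2 were, so that the share called was the same with and without the motif. The sites of 4 of the called genes are set beside that of *Hspa5* given above, with CCAAT and CCACG in capitals.
Calr, chr8:84847070-84847098, bases -162 to -144, motif on the opposite strand: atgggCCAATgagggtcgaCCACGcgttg
Creld2, chr15:88819515-88819543, bases -126 to -108, motif on the opposite strand: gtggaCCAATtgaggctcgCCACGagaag
Dnajc3, chr14:118937822-118937850, bases -105 to -87: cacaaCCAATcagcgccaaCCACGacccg
Pdia6, chr12:17266486-17266514, bases -98 to -80: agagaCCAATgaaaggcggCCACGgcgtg

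Genes of ER-associated degradation, the process *Herpud1* belongs to, were higher in *Tespa1*-/- LSKs after 5-FU in 6 of 12, and 3 of 10 genes of the translocon and signal peptidase were, beside 7.34% of all genes. *Edem1*, which extracts misfolded glycoproteins, was 1.43-fold higher (edgeR adjusted p = 0.0045), *Derl2*, a channel component, 1.63-fold (0.0233), *Selenos* 1.40-fold (0.0231) and *Os9* 1.19-fold (0.0239). Of the translocon and signal peptidase, which bring proteins into the ER, *Sec61a1* was higher by 1.27-fold (edgeR adjusted p = 0.00479), *Spcs2* by 1.37-fold (0.0219) and *Spcs1* by 1.57-fold (0.0351). Of 5 tested sensors and proteases of the UPR, 1 was called between genotypes after 5-FU (13.1% of all genes). With 5-FU, 1 was called in *Tespa1*+/+ (7.95%) and 1 in *Tespa1*-/- LSKs (19.4%). *Ern1*, which encodes IRE1α and whose product splices *Xbp1* mRNA, was slightly lower in *Tespa1*-/- LSKs after 5-FU (log2 fold change -0.20, edgeR adjusted p = 0.04). It also fell with 5-FU in *Tespa1*-/- LSKs (-0.24, 0.0111), with a difference that did not pass in *Tespa1*+/+ LSKs (-0.22, 0.0674). *Atf6* fell with 5-FU in *Tespa1*+/+ LSKs (-0.44, 0.0235). Among other ISR outputs, *Vldlr*, a lipoprotein receptor, was the 1 gene called of 4 tested with 5-FU in *Tespa1*+/+ LSKs (7.95% of all genes) and of 5 tested between genotypes after 5-FU (13.1%). It rose 1.74-fold with 5-FU in *Tespa1*+/+ LSKs (edgeR adjusted p = 0.0248) and was lower in *Tespa1*-/- LSKs after 5-FU (log2 fold change -0.54, 0.0203).

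The libraries in which *Asns*, *Xbp1*, the synthetases and the chaperones were higher were also those with the high neutrophil and erythroid sums given above, in which 11 of 11 genes of each list were called higher than in 5-FU-treated *Tespa1*+/+ LSKs. Genes of mast cells and basophils summed to 91.1 to 99.9 CPM there, against 30.5 to 31.4 CPM. B cell and plasma cell genes, a class that includes high users of *Xbp1*, summed to 525 to 536 CPM against 435 to 462 CPM, and 4 of 13 were called higher. The 9 monocyte and macrophage genes summed to 394 to 406 CPM against 269 to 284 CPM, a sum that *Lyz2* led (156 to 170 CPM against 50.8 to 60.3 CPM), while *Ccr2* was lower (113 to 121 CPM against 127 to 147 CPM). Those 2 were the only called genes of that list. The 9 T and NK cell genes summed to 65.6 to 74.1 CPM against 36.9 to 44.3 CPM. *Nkg7* led that sum (47.6 to 56.5 CPM against 27.6 to 36.6 CPM). Of 8 tested T and NK cell genes, 3 were called, all higher, beside 7.34% of all genes. LSK markers moved the opposite way, 6 of 8 being lower. The part of these cells in the pathway differences was not tested, and cell makeup and genotype after 5-FU cannot be told apart in these libraries.

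**Figure D5:**
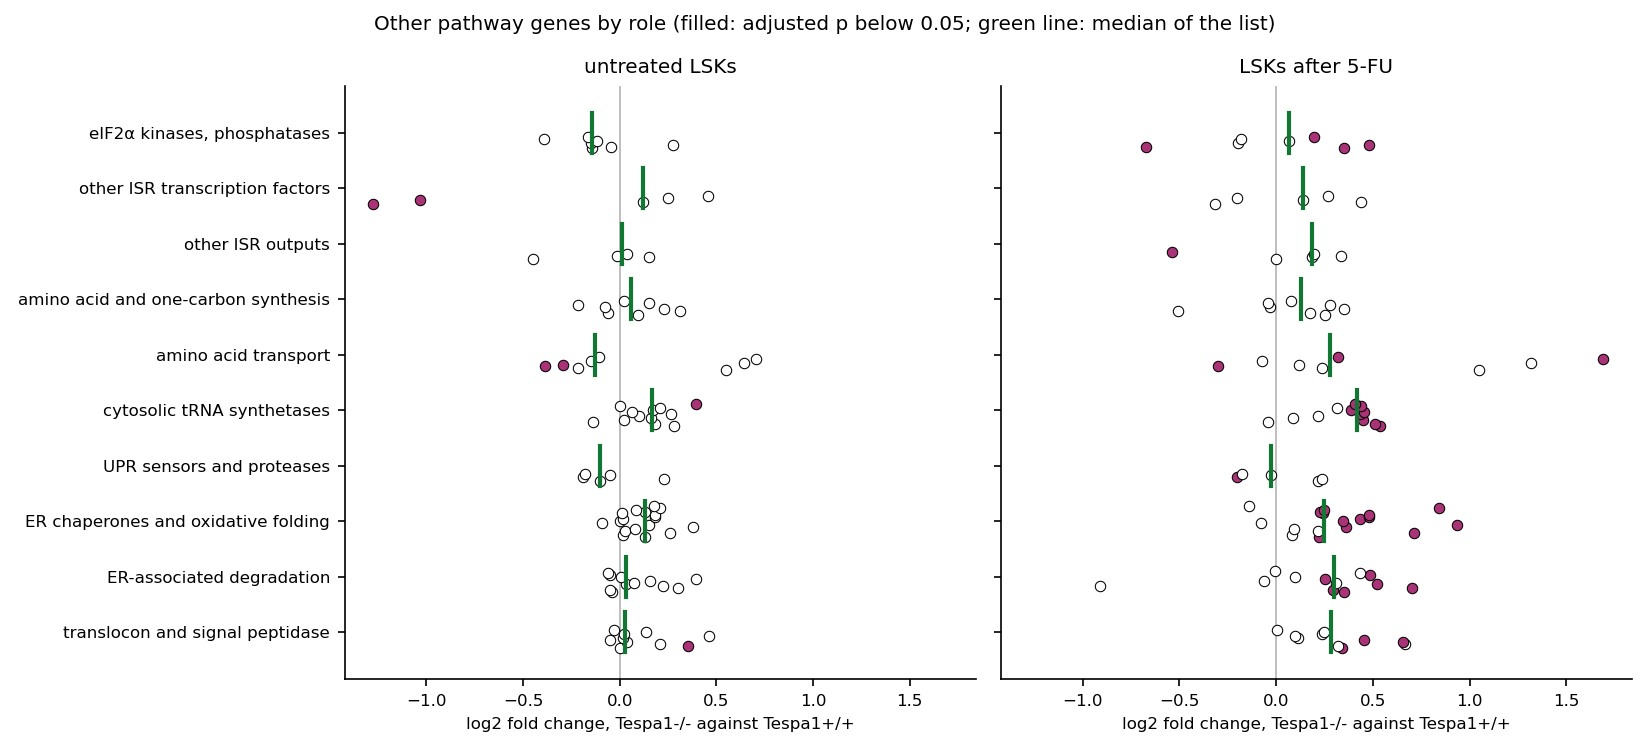
Log2 fold change between genotypes of each tested gene in 10 pathway lists, in untreated LSKs (left) and after 5-FU (right). Filled points passed an adjusted p of 0.05 and green lines are list medians. After 5-FU the medians of the tRNA synthetases and ER chaperones were 0.42 and 0.25, beside 0.17 and 0.13 in untreated LSKs.

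To see which genes varied most like the transcription factors and *Hspa5*, Pearson's r of log2(CPM + 1) was computed over the 12 libraries against 11193 genes with a mean of at least 5 CPM. The 12 libraries share the 4 groups, so that r mostly reflects group means and is given as a description. The nearest genes to *Atf4* were *Gadd45b* (r = 0.973), *Klf2* (0.973) and *Nfkbia* (0.967), which all had their highest mean in untreated *Tespa1*+/+ LSKs, at 74.2, 461 and 437 CPM. For *Ddit3* they were *Ighm*, an immunoglobulin gene of the B cell list (0.981), *Bhlhe40* (0.946) and *Cebpb* (0.931), again highest in untreated *Tespa1*+/+ LSKs. For *Xbp1* they were *Gm5453* (0.931), *Gm9826* (0.93) and *Hist1h3f* (0.927). For *Hspa5* they were *Gm14414* (0.953), *Gm14150* (0.929) and *Mrfap1* (0.92), whose lowest mean was in 5-FU-treated *Tespa1*+/+ LSKs.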

How the data were processed

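RNA-seq of LSKs was used, with 3 libraries in each of 4 groups taken from the labels. The authors deposited 1 table with raw counts per gene and FPKM values computed from them. The labels name a stranded poly-A kit, and the submitters' processing notes name CASAVA 1.8, HISAT2, StringTie, edgeR and GRCm38, with no roles. How strand was used in counting is not given in the sources used here. FPKM served only to compare levels between genes.

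The quasi-likelihood test of edgeR 4.0.16, run in R 4.3.3, was applied to the counts (filterByExpr with a minimum count of 10, TMM, glmQLFit and glmQLFTest) on the whole table, separately for the 6 libraries of each comparison and with all 12 for the interaction. Genes were called at a Benjamini-Hochberg adjusted p below 0.05 over all genes tested. Intervals are 95%, and SE is that of the log2 fold change. Single 3 against 3 differences had a smallest exact permutation p of 0.1, so that none could pass. The detection limit takes in no error other than that of counting. Every pair of replicates differed beyond sampling noise (median chi-square 2.19 to 5.96, against 0.455). Alternatives were DESeq2 1.42.0, other scaling and filters, the study's thresholds (P below 0.05, fold above 1.5), a replicate block and each library left out.

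The 10 members were named for this work, and they and all lists were chosen with earlier results of these data known. Named pathway genes are at most the 4 with the smallest p among those called in each list and comparison. Outside this rule, *Yars*, *Iars*, *Tars*, *Hsp90b1*, *Creld2*, *Dnajc3*, *Pdia6*, *Canx* and *Ero1lb* were named for their promoters, and *Hyou1*, *Aldh18a1*, *Eif2ak4*, *Ppp1r15a* and *Eif2s1* to complete a list or give its smallest p, after their values were seen. The nearest genes are the 3 highest by r. RefSeq promoters were matched by symbol, and sites are printed for only some of the genes that hold a motif. Tables and figures were made in Python 3.11.15 with SciPy 1.17.1, matplotlib 3.10.9, NumPy 2.4.6 and pandas 2.3.3.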

Additional observations from a re-analysis of the deposited data

Results flagged for a closer look

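The difference between genotypes after 5-FU differed from that in untreated LSKs, by edgeR's interaction test (threshold 0.05 after Benjamini-Hochberg adjustment), for the following genes. Values are the log2 difference after 5-FU minus that without treatment. Among the 10 genes they were 0.547 for *Atf4*, 0.803 for *Ddit3* and 1.414 for *Asns*. Among the transcription factors they were 0.963 for *Atf3* and 1.177 for *Cebpb*, and upstream of eIF2α they were -0.623 for *Eif2ak2* and 0.366 for *Ppp1r15b*. In amino acid supply they were 0.414 for *Slc3a2*, 0.433 for *Gars* and 0.39 for *Nars*. In the ER they were 0.786 for *Ero1l*, 0.642 for *Sdf2l1*, 0.424 for *Hyou1*, 0.35 for *Hsp90b1*, 0.301 for *P4hb*, 0.344 for *Sec61a1* and 0.508 for *Spcs2*. Of these 17 genes, 16 had a higher value after 5-FU. For *Atf4*, *Ddit3*, *Atf3*, *Cebpb* and *Slc3a2* the difference was called in untreated LSKs, lower in *Tespa1*-/-, and was not called after 5-FU. With 1 library left out, the call for *Asns* was lost in 10 of 12 fits and that for *Ddit3* in 2. *Eif2ak2*, which interferon induces, was the 1 of the 17 with a lower value.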

How the results depend on the processing

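Called values of single members, 16 in all, kept their direction in all 109 recomputations with another tool, filter, scaling or design, and 105 kept their call. With each library left out, 87 of 114 kept it, and in none did the sign turn. Values with the sign turned all belonged to differences that were not called, each with 1 library left out: between genotypes without treatment, *Trib3* (-0.173 to 0.367), *Asns* (-0.203 to 0.415), *Psat1* (-0.128 to 0.124) and *Hspa5* (-0.034 to 0.071), and after 5-FU *Ddit3* (-0.034 to 0.182). The same held with 5-FU for *Asns* in *Tespa1*+/+ (-0.128 to 0.492) and for *Trib3* (-0.123 to 0.420) and *Psat1* (-0.091 to 0.168) in *Tespa1*-/- LSKs, and for *Dnajb9* in the interaction (-0.009 to 0.180). Besides calls lost without 1 library, the interaction of *Asns* was lost with library totals in place of TMM (adjusted p = 0.0523). *Herpud1* was called with 5-FU in *Tespa1*+/+ LSKs when all 12 libraries shared 1 fit (adjusted p = 0.0313). *Dnajb9* was called between genotypes after 5-FU in 2 of 7 fits with another tool, filter, scaling or design. The causes were not tested.

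Replicate numbers did not pair the libraries: deviations of same-numbered libraries correlated at -0.032 to 0.0167. A replicate block left 2, 3, 3, 3 and 2 members called (genotype untreated, genotype after 5-FU, 5-FU in *Tespa1*+/+, 5-FU in *Tespa1*-/-, interaction), and in untreated LSKs 3 pathway genes and 454 genes in all, instead of 6 and 892. The calls lost were *Dnajb9* in untreated LSKs (0.0963) and with 5-FU in *Tespa1*+/+ LSKs (0.0502) and *Asns* in the interaction (0.066).

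Requiring a fold above 1.5 beside the adjusted p left 1, 2, 2, 1 and 2 members (genotype untreated, genotype after 5-FU, 5-FU in *Tespa1*+/+, 5-FU in *Tespa1*-/-, interaction), after 5-FU *Asns* and *Xbp1* but not *Hspa5*, and 2, 7, 3, 3 and 5 pathway genes over the 5 comparisons, of 428, 1204, 753, 1735 and 601 genes in all. It left 0 synthetases and 3 chaperones after 5-FU, where edgeR without the fold threshold called 8 and 12. With that fold and an unadjusted P below 0.05 the members were 1, 3, 3, 1 and 2 in the same order, the pathway genes 2, 10, 5, 4 and 8, the synthetases 0, the chaperones 3 and the interaction 1941 genes. DESeq2 called 1427 genes and 11 pathway genes between untreated genotypes, 2062 with 5-FU in *Tespa1*+/+ LSKs and 1535 in the interaction. With all 12 libraries in 1 fit these were 10 pathway genes between untreated genotypes and 2113 genes with 5-FU in *Tespa1*+/+ LSKs, and without TMM the interaction held 8 pathway genes.

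With 1 library left out, called members ranged from 2 to 3, 3 to 4, 2 to 4, 2 to 3 and 1 to 4 over the 5 comparisons. The 2 with 5-FU in *Tespa1*+/+ LSKs were *Atf4* and *Hspa5*, without untreated library 1 or 2 or 5-FU-treated library 2 or 3, and the 1 in the interaction was *Atf4*, without untreated *Tespa1*-/- library 1 or 2. Pathway genes ranged from 3 to 7, 22 to 28, 5 to 9, 19 to 25 and 7 to 12, all genes from 338 to 808, 1519 to 1710, 783 to 1102, 2259 to 3060 and 573 to 862, synthetases from 5 to 8 and chaperones from 9 to 11. *Trib3* had 24 to 114 counts per library and *Chac1* 0 to 32.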
